A study of Rattus norvegicus with 16 samples.

Results

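The enzymes described here oxidise, reduce or saturate reactive aldehydes, ketones and alkenals in the liver. They are the products of 6 genes, Aldh1a1, Aldh2, Aldh3a2, Akr1a1, Cbr1 and Ptgr1, and their members are all probe sets that the array platform's annotation assigns to one of these symbols. That gave 9 of 8740 probe sets: 1 each for Aldh1a1, Aldh2, Akr1a1 and Ptgr1, 2 for Cbr1 and 3 for Aldh3a2. Of the 9, 8 passed a filter on dim signals that kept 5323 probe sets in all: a value had to exceed the 40th percentile of its own array in 4 or more of the 16 livers.

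Liver RNA came from 16 male F344 rats, aged 6 weeks when obtained and assigned at random to 4 groups of 4, with 1 single-colour array per rat. The groups received D3T, OLT (oltipraz) or TBD by gavage at 0.3 mmol/kg, or the sucrose vehicle, as 3 doses over 5 days, and livers were frozen 24 h after the last dose. All rats had the same chow, and the control samples, titled as not treated, were given the vehicle per the study's design text. That text gives gavage as the route, while the protocol of the single samples can be read as a treated diet. Per the labels D3T is the bare dithiolethione ring, TBD has a tert-butyl substituent, and OLT is substituted with both methyl and pyrazinyl. Values below are log2 expression values as the authors deposited them, made with GCRMA, so a difference of 1 is a doubling. In bulk liver, fewer cells of a type and less RNA per cell cannot be told apart.

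As background, aldehyde dehydrogenases (ALDH) oxidise aldehydes to acids. Aldo-keto reductases (AKR) and carbonyl reductases reduce aldehydes and ketones to alcohols, and also reduce quinones. Alkenal reductase saturates the double bond that makes an alkenal such as the lipid peroxidation product hydroxynonenal reactive. Dithiolethiones are known to activate the transcription factor NRF2, which induces several enzymes of this kind in rat liver. Ptgr1 is listed in the reference gene table with the synonym Dig1, from its isolation as a dithiolethione-inducible gene of rat liver.

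Array medians lay between 3.27 and 3.58. All 10 hepatocyte markers examined, among them Alb, Ttr and Cps1, lay above the array median on all 16 arrays, which fits the labelled tissue. Of these 10, 2 were higher and 2 lower with D3T, 2 lower with OLT and 1 lower with TBD, and their summed linear level was 165123 to 174043 in D3T livers, 131814 to 165789 in OLT livers, 141590 to 175846 in TBD livers and 137657 to 154225 in vehicle livers. The D3T range lay wholly above that of vehicle, and its part in the results below was not tested. On the second principal component, which held 13.0% of the variance, OLT replicate 1 and TBD replicate 4 lay furthest out, with scores of 21.67 and 21.79. The next highest score was 12.58, and the lowest was -14.14 in vehicle replicate 1. Of 6 Kupffer cell and macrophage markers on the array, 4 were lower with D3T, 4 with OLT and 4 with TBD, and the list's summed linear level was 1364 to 1658 in D3T livers, 1283 to 1729 in OLT livers, 1426 to 1886 in TBD livers and 2454 to 3506 in vehicle livers. All 6 of these markers lay above the array median on all 16 arrays. Of 3 tested stellate cell markers, 2 were lower with D3T, 1 with OLT and 2 with TBD, and of 4 endothelial markers 1, 0 and 1, with Pecam1 and Vwf below the array median everywhere. The part of these cells in the results below was not tested. Beside these marker counts, 12.2% of all tested probe sets were lower with D3T, 7.89% with OLT and 9.47% with TBD, and 6.18% were higher with D3T.

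Among the 8 tested probe sets, 2 passed the threshold with D3T, 2 with OLT and 3 with TBD, each against vehicle (limma, threshold 0.05 on p-values adjusted by Benjamini-Hochberg across all tested probe sets). Over all tested probe sets the share called was 18.4% with D3T (6.18% higher and 12.2% lower), 11.3% with OLT (3.38% higher and 7.89% lower) and 13.0% with TBD (3.55% higher and 9.47% lower). With only 8 members, nothing particular to these enzymes is read from the number of calls. The members differed in direction: Aldh1a1 rose with all 3 compounds, Akr1a1 rose with D3T and OLT, Aldh3a2 and Ptgr1 fell with TBD, and Aldh2 and Cbr1 passed in no comparison. Between compounds, 1 member difference passed, that of Ptgr1 between D3T and TBD, where 0.658% of all tested probe sets were called. For D3T against OLT 0 members passed, beside 1.07% of all tested probe sets, and for TBD against OLT 0 members, beside 0.0564%. With no adjustment of the limma p-values, 2 members (Ptgr1 and Aldh2) were under 0.05 for D3T against OLT, beside 12.3% of all tested probe sets. The same count was 4 (Ptgr1, Akr1a1 and both tested probe sets of Aldh3a2) for D3T against TBD, beside 10.0%. It was 3 (Ptgr1, Aldh2 and M73714_at of Aldh3a2) for TBD against OLT, beside 2.72%.

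**Figure D1:**
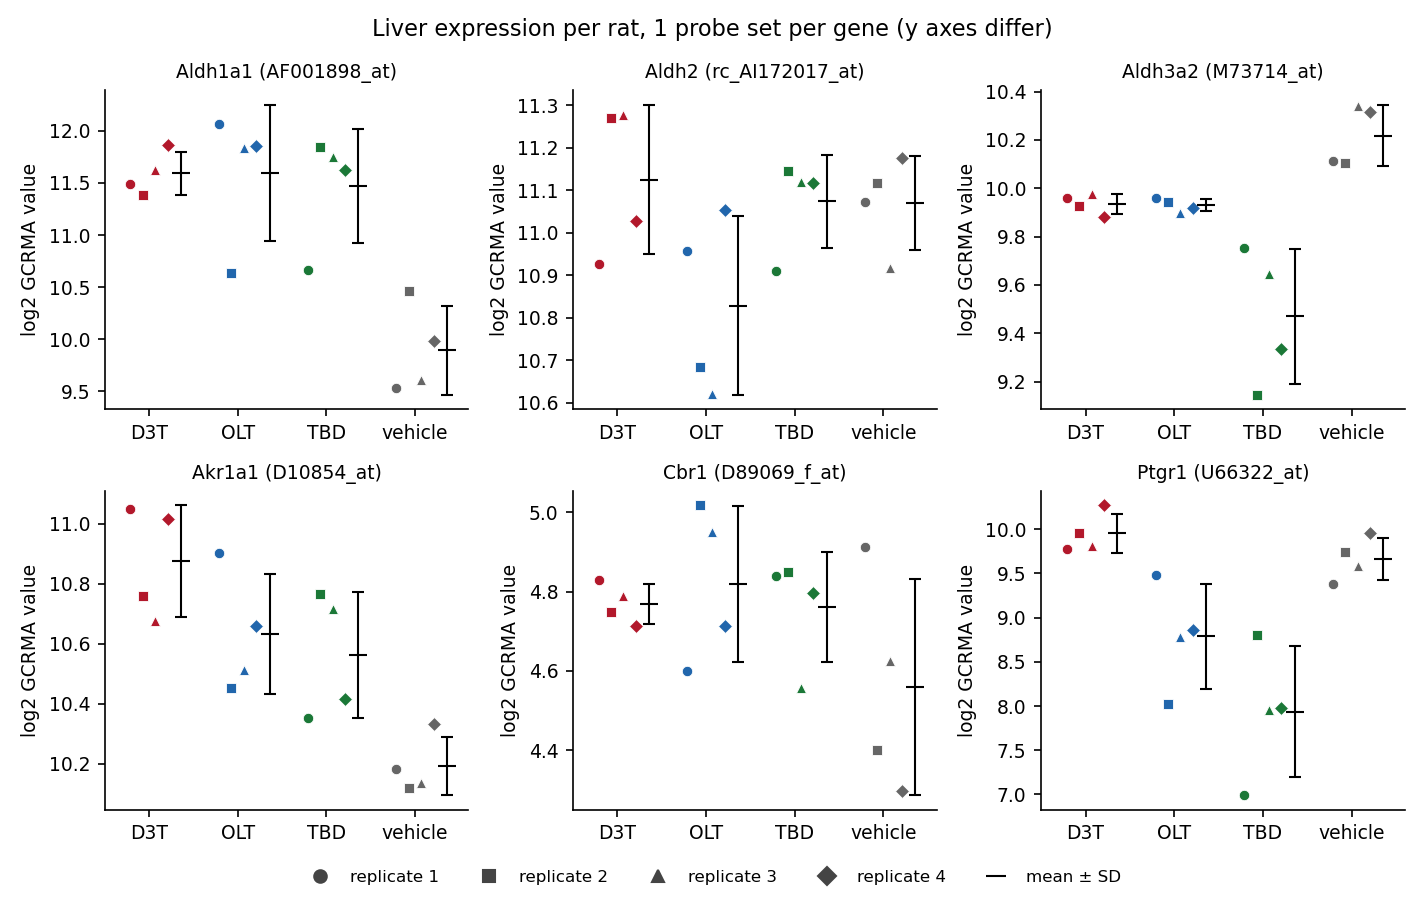
Log2 GCRMA values of the 6 genes, 1 probe set per gene, in D3T, OLT, TBD and vehicle livers, with 1 symbol per rat and the mean ± SD of 4 rats beside each group. Aldh1a1 lies at 10.63 or above on the 12 compound arrays and at 10.46 or below on the 4 vehicle arrays, while the 4 TBD values of Ptgr1 lie at 6.99 to 8.80, below all 4 vehicle values at 9.38 to 9.96.

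Aldh1a1, the cytosolic dehydrogenase that oxidises retinaldehyde and aldehydes from lipid peroxidation, gave the only call shared by the 3 compounds among the members. It read 11.49, 11.39, 11.62 and 11.87 in D3T livers, 12.07, 10.63, 11.83 and 11.86 in OLT livers, 10.66, 11.84, 11.75 and 11.62 in TBD livers, and 9.53, 10.46, 9.60 and 9.98 in vehicle livers (probe set AF001898_at). Every compound-treated liver lay above every vehicle liver, although OLT replicate 2 and TBD replicate 1 lay more than 1 log2 unit below the highest rat of their group and close to vehicle replicate 2. Such a separation was seen at 9.07% of tested probe sets with D3T, 4.88% with OLT and 3.98% with TBD. The rise was 3.25-fold with D3T (1.70 ± 0.32 on the log2 scale, SE with 4 rats per group, limma adjusted p = 0.00195), 3.26-fold with OLT (1.71 ± 0.32, adjusted p = 0.00324) and 2.98-fold with TBD (1.58 ± 0.32, adjusted p = 0.00448). The 3 compounds share the 4 vehicle rats, so these differences are not independent of each other.

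The compounds were also set against each other at their common dose and time, in 3 pairs, with p-values adjusted within each pair over the 5323 tested probe sets. For Aldh1a1 the difference of D3T minus OLT was -0.0047 (95% interval -0.69 to 0.68), that of D3T minus TBD 0.12 (-0.56 to 0.80) and that of TBD minus OLT -0.13 (-0.81 to 0.55). None passed, and the width of these intervals means that equal responses are not shown. Group means were 11.59 ± 0.21 in D3T livers, 11.60 ± 0.65 in OLT livers, 11.47 ± 0.55 in TBD livers and 9.89 ± 0.43 in vehicle livers (SD, n = 4 each). The 3 compound means differed by less than the spread between rats, and each stood above the vehicle mean by more than that spread.

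Akr1a1 encodes aldehyde reductase, which reduces many aldehydes and, in mice, serves in ascorbate synthesis. It read 11.05, 10.76, 10.68 and 11.01 in D3T livers, 10.90, 10.45, 10.51 and 10.66 in OLT livers, 10.35, 10.77, 10.72 and 10.41 in TBD livers, and 10.18, 10.12, 10.13 and 10.33 in vehicle livers (D10854_at). All 12 compound-treated livers lay above the 4 vehicle livers, the closest being TBD replicate 1 and vehicle replicate 4. A full separation upward was seen at 9.07% of tested probe sets with D3T, 4.88% with OLT and 3.98% with TBD. Akr1a1 rose 1.60-fold with D3T (0.68 ± 0.13 on the log2 scale, SE with 4 rats per group, limma adjusted p = 0.00184) and 1.36-fold with OLT (0.44 ± 0.13, adjusted p = 0.0357). With TBD the difference was 0.37 (95% interval 0.10 to 0.64, adjusted p = 0.0691) and did not pass.

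The OLT and TBD results of Akr1a1 lie close to the threshold. Omitting vehicle replicate 1, 2 or 3 or OLT replicate 1 or 4 ended the OLT call (for OLT replicate 1 the limma adjusted p became 0.0976), and over all alternatives its adjusted p ran from 0.0032 to 0.109. Without both arrays that stand apart, OLT replicate 1 and TBD replicate 4, the OLT difference was 0.35 (adjusted p = 0.0903) and the TBD difference 0.42 (adjusted p = 0.0359). The TBD difference passed without TBD replicate 1 (0.44, adjusted p = 0.0496), with array weights (0.43, adjusted p = 0.0206) and after renewed quantile normalization (0.45, adjusted p = 0.00667). Between compounds, D3T minus OLT was 0.24 (95% interval -0.03 to 0.51), D3T minus TBD 0.31 (0.04 to 0.58, adjusted p = 0.388) and TBD minus OLT -0.07 (-0.34 to 0.20), so the larger D3T rise was not shown to differ from the others.

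The start regions of Aldh1a1 and Akr1a1 are printed because these 2 genes rose together with D3T and OLT. They hold 250 bases before and 50 bases after the transcript start, taken from RefSeq on build GRCr8 and written 5′ to 3′ along the gene's own strand. They lie at chr1:227537370-227537669 on the plus strand for Aldh1a1 and at chr5:135346182-135346481 on the minus strand for Akr1a1. Both were searched on both strands for the core of the antioxidant response element bound by NRF2, TGACNNNGC, and for the variant TGAGNNNGC, and matches are in capitals.
Aldh1a1: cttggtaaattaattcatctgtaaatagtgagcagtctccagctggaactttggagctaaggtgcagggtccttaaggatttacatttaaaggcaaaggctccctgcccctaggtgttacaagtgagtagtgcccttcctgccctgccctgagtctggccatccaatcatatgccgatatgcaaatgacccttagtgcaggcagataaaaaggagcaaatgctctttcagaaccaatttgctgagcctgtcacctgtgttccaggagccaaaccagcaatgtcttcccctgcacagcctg
Akr1a1: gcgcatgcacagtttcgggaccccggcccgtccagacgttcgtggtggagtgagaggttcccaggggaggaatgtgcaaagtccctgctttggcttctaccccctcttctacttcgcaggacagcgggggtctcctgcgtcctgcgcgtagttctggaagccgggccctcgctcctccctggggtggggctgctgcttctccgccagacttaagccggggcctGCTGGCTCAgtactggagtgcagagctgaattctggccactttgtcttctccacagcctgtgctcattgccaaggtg
Akr1a1 held 1 match, to TGAGNNNGC on the opposite strand, with its first printed base at position -27 from the start, and Aldh1a1 held 0 matches. Of 33469 rat start regions of this length, 12.1% held TGACNNNGC and 17.2% held TGAGNNNGC. The regions of Aldh3a2 and Cbr1 held 0 matches as well. These are letter matches in a short window and say nothing of binding. Those of Aldh2 and Ptgr1 were not analysed here.

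Ptgr1 encodes prostaglandin reductase 1, which reduces the double bond of alkenals and enones and also inactivates leukotriene B4 and keto-prostaglandins. It passed the threshold upward with none of the 3 dithiolethiones, and it fell with TBD. It read 9.78, 9.96, 9.81 and 10.27 in D3T livers, 9.48, 8.03, 8.78 and 8.86 in OLT livers, 6.99, 8.80, 7.96 and 7.98 in TBD livers, and 9.38, 9.74, 9.58 and 9.96 in vehicle livers (U66322_at). The D3T livers overlapped the vehicle livers, 3 of 4 OLT livers lay below all vehicle livers, and all 4 TBD livers did. Such a full separation downward was seen at 10.3% of tested probe sets with TBD.

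Ptgr1 fell 3.32-fold with TBD (-1.73 ± 0.33 on the log2 scale, SE with 4 rats per group, limma adjusted p = 0.00298), and the adjusted p ran from 0.0012 to 0.0222 over the alternatives. With OLT the difference was -0.88 (95% interval -1.58 to -0.17, adjusted p = 0.108) and did not pass. It passed when OLT replicate 1, the highest OLT liver, was left out (-1.11, adjusted p = 0.0459), when TBD replicate 1 was left out (-0.88, adjusted p = 0.0493), without both arrays that stand apart (-1.11, adjusted p = 0.048), and with array weights (-0.90, adjusted p = 0.0329). With D3T the difference was 0.29 (95% interval -0.41 to 0.99, adjusted p = 0.602), an interval whose upper end is 1.99-fold.

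Ptgr1 was the only member whose difference between the bare ring, D3T, and the tert-butyl ring, TBD, passed the threshold. Members that did not pass are not shown to respond alike to both. D3T minus TBD was 2.02 ± 0.33 (SE, n = 4 per group), or 4.06-fold (adjusted p = 0.00984, limma), with all 4 D3T livers above all 4 TBD livers. Higher calls for D3T were made at 0.188% of tested probe sets in that comparison, and D3T livers lay above TBD livers without overlap at 6.95%. The call was lost in a fit on the 8 arrays compared alone (adjusted p = 0.0813) and after centring of the array medians (1.95, adjusted p = 0.0581). D3T minus OLT was 1.16 (95% interval 0.46 to 1.87, adjusted p = 0.119), again with no overlap between the groups, as at 3.49% of tested probe sets, and it passed with array weights (1.20, adjusted p = 0.0148). TBD minus OLT was -0.86 (-1.56 to -0.15, adjusted p = 0.9999). Group means were 9.95 ± 0.22 in D3T livers, 8.79 ± 0.60 in OLT livers, 7.93 ± 0.74 in TBD livers and 9.66 ± 0.24 in vehicle livers (SD, n = 4 each). By level the order was thus D3T, vehicle, OLT and TBD, and each group overlapped its neighbour in that order.

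**Figure D2:**
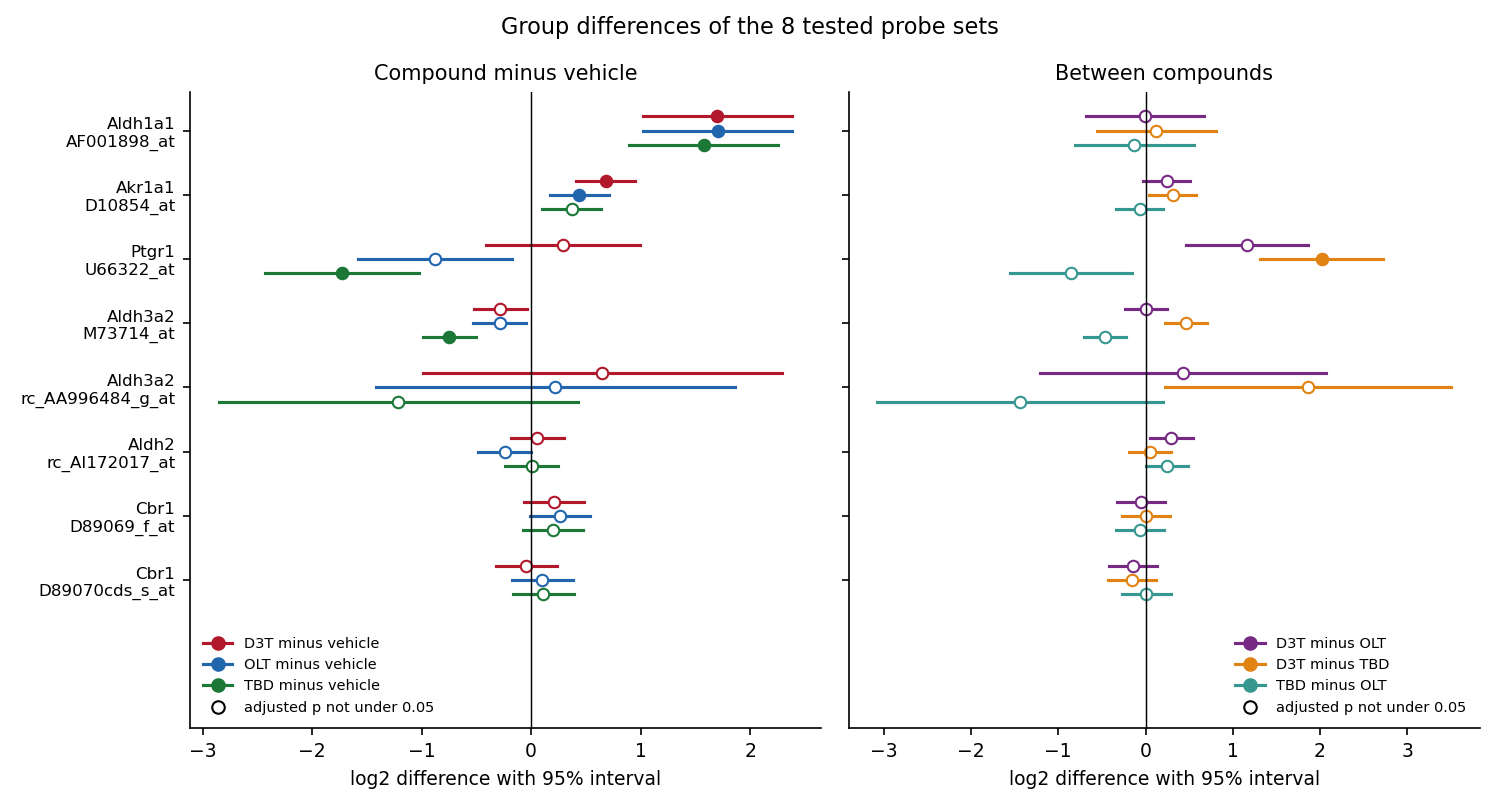
Log2 differences with 95% intervals for the 8 tested probe sets, left for D3T, OLT and TBD minus vehicle and right for the 3 pairs of compounds, with filled points where the adjusted p is under 0.05. Aldh1a1 is to the right of 0 with each compound, Ptgr1 lies at -1.73 with TBD and at 0.29 with D3T, and the only filled point between compounds is Ptgr1 for D3T minus TBD at 2.02.

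Aldh3a2 encodes the fatty aldehyde dehydrogenase of the endoplasmic reticulum, which oxidises long-chain aldehydes. Its probe set M73714_at read 9.96, 9.93, 9.98 and 9.88 in D3T livers, 9.96, 9.94, 9.90 and 9.92 in OLT livers, 9.75, 9.15, 9.64 and 9.33 in TBD livers, and 10.11, 10.10, 10.34 and 10.31 in vehicle livers. All 12 compound-treated livers lay below the 4 vehicle livers, and the TBD livers lay below all others. A full separation downward was seen at 15.8% of tested probe sets with D3T, 9.79% with OLT and 10.3% with TBD. The fall was 1.68-fold with TBD (-0.75 ± 0.11 on the log2 scale, SE with 4 rats per group, limma adjusted p = 0.00065).

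With D3T and OLT the differences of M73714_at were smaller, -0.28 (95% interval -0.52 to -0.04, adjusted p = 0.099) and -0.29 (-0.53 to -0.05, adjusted p = 0.125), and did not pass. The SD was 0.04 in D3T livers, 0.03 in OLT livers, 0.28 in TBD livers and 0.13 in vehicle livers, and the fit shares 1 spread among them. In a fit on the D3T and vehicle arrays alone the D3T difference passed (adjusted p = 0.0471), and with array weights both the D3T difference (-0.36, adjusted p = 0.00536) and the OLT difference (-0.39, adjusted p = 0.009) passed. D3T minus TBD was 0.47 (0.23 to 0.71, adjusted p = 0.0897), which passed without TBD replicate 1 (0.56, adjusted p = 0.0314) and with array weights (0.53, adjusted p = 0.018), and TBD minus OLT was -0.46 (-0.70 to -0.22, adjusted p = 0.671). Both pairs had no overlap between groups, as at 6.95% and 0.77% of tested probe sets.

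The other probe sets of Aldh3a2 did not repeat the whole of this pattern. The probe set rc_AA996484_g_at read 6.84 to 8.36 in D3T livers, 6.49 to 8.02 in OLT livers, 2.70 to 7.52 in TBD livers and 6.68 to 7.55 in vehicle livers, and all of these ranges overlapped. Its difference was 0.65 with D3T (95% interval -0.99 to 2.29), 0.22 with OLT (-1.42 to 1.86) and -1.22 with TBD (-2.86 to 0.43), with none past the threshold. Of the TBD livers, 3 of 4 lay below all vehicle livers. Replicates 2 and 4 did so narrowly, at 6.56 and 6.65 against a lowest vehicle value of 6.68. The size of the TBD difference rests on replicate 3, at 2.70 and below its array's median, and without that rat it was -0.16. The probe set rc_AA996484_at, the member that failed the filter, read between 1.67 and 1.96 in all 16 livers, below the array median everywhere. When the 3 probe sets were averaged, the TBD difference was -0.67 and no longer passed (adjusted p = 0.112), and the D3T difference turned to 0.11. That average includes rc_AA996484_at, which failed the filter, and rc_AA996484_g_at, whose SE was 0.77 against 0.11 for M73714_at. It therefore cannot decide on the change of M73714_at.

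**Figure D3:**
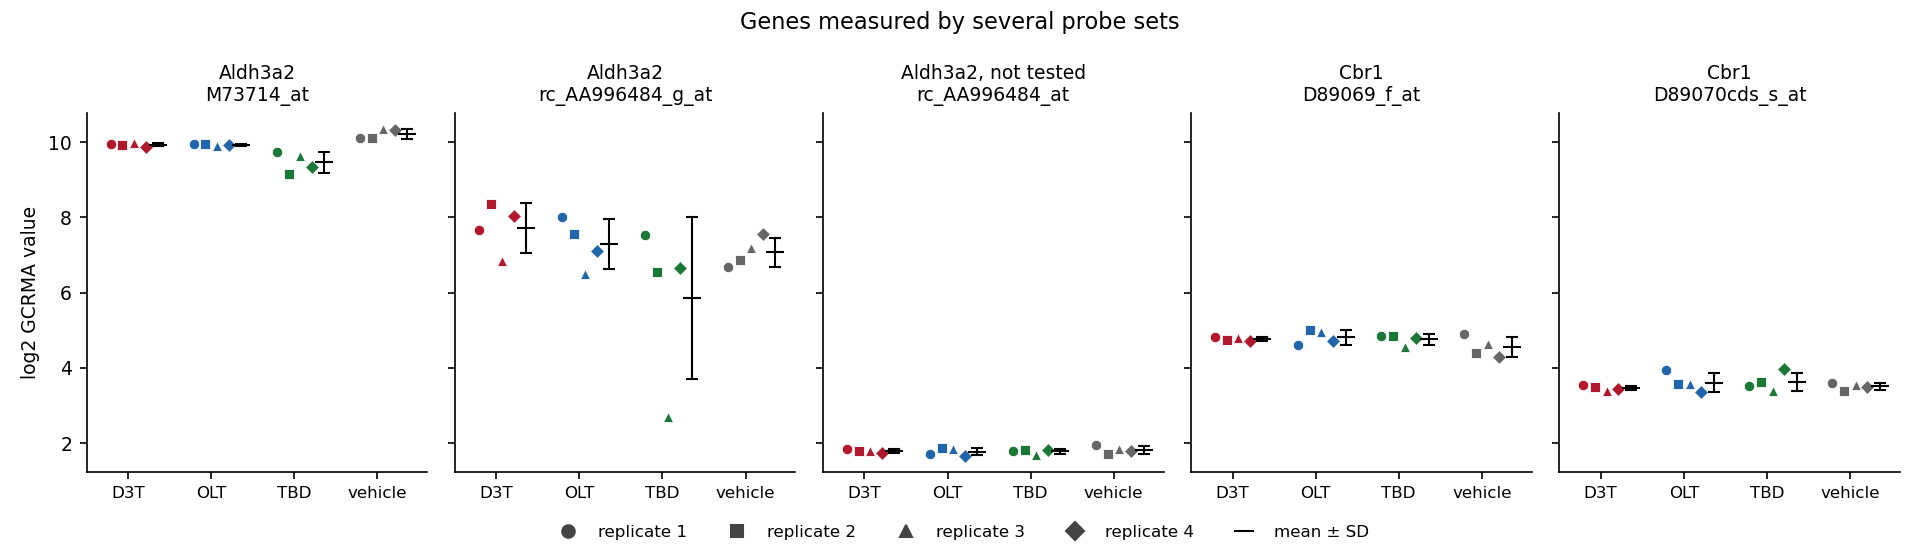
Log2 GCRMA values of the 3 probe sets of Aldh3a2 and the 2 of Cbr1 in D3T, OLT, TBD and vehicle livers on 1 shared axis, with 1 symbol per rat and the mean ± SD of 4 rats. TBD replicate 3 reads 2.70 on rc_AA996484_g_at while the other TBD rats read 6.56 to 7.52, and rc_AA996484_at stays between 1.67 and 1.96 in all groups.

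Aldh2, the mitochondrial dehydrogenase that clears acetaldehyde formed from ethanol, passed with no compound. It read 10.93, 11.27, 11.28 and 11.03 in D3T livers, 10.96, 10.68, 10.62 and 11.05 in OLT livers, 10.91, 11.15, 11.12 and 11.12 in TBD livers, and 11.07, 11.12, 10.92 and 11.18 in vehicle livers (rc_AI172017_at), and the groups overlapped. The difference was 0.06 with D3T (95% interval -0.19 to 0.30), which was -0.00073 after centring, -0.24 with OLT (-0.49 to 0.0020, adjusted p = 0.221) and 0.0034 with TBD (-0.24 to 0.25). The interval of D3T ends at 1.23-fold and that of TBD at 1.19-fold higher. Between compounds, the largest difference was D3T minus OLT at 0.30 (0.05 to 0.54, adjusted p = 0.287), which passed with array weights (0.44, adjusted p = 0.0147).

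Cbr1, the cytosolic carbonyl reductase of quinones and prostaglandins, was read by 2 dim probe sets. D89069_f_at lay at 4.71 to 4.83 in D3T livers, 4.60 to 5.02 in OLT livers, 4.56 to 4.85 in TBD livers and 4.30 to 4.91 in vehicle livers, with overlap between all groups. Its difference was 0.21 with D3T (95% interval -0.06 to 0.49), 0.26 with OLT (-0.01 to 0.54, adjusted p = 0.249) and 0.20 with TBD (-0.07 to 0.48), and none passed. The OLT difference passed after centring (0.28, adjusted p = 0.034), with array weights (0.31, adjusted p = 0.017) and without vehicle replicate 1 (0.38, adjusted p = 0.0459). D89070cds_s_at read 3.36 to 3.96 over all livers, close to the array medians, and its differences from vehicle lay between -0.05 and 0.11.

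The level of D89069_f_at moved with the array as a whole. Taken as deviations from group means, its values correlated with the array medians at r = 0.90 over 16 arrays, against -0.72 for Aldh1a1, -0.50 for Ptgr1, -0.37 for Akr1a1, -0.57 for Aldh2 and -0.05 for M73714_at of Aldh3a2. The highest vehicle value of D89069_f_at, 4.91, came from vehicle replicate 1, whose array had the highest median of all, 3.58. The part of array background in the Cbr1 values was not tested further. The suffix of this probe set marks probes shared within a gene family, so its values cannot be assigned to Cbr1 alone.

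In the OLT and TBD groups, rats differed from each other in a shared way for 3 of the members. Among the OLT livers, Aldh1a1, Akr1a1 and Ptgr1 put the rats in 1 order, with replicate 1 highest, then 4, then 3, and replicate 2 lowest. Among the TBD livers, replicate 1 was lowest and replicate 2 highest for all 3 genes. The same held there for Aldh2, while M73714_at of Aldh3a2 had TBD replicate 1 highest and replicate 2 lowest. Within groups Ptgr1 correlated at 0.49 with Aldh2 and at -0.56 with Aldh3a2. The set of 3 genes was not fixed in advance. The vehicle and D3T livers had no order common to all 3 genes. Vehicle replicate 2 was highest for Aldh1a1 and lowest for Akr1a1, and D3T replicate 1 was highest for Akr1a1 and lowest for Ptgr1. Aldh1a1 and Ptgr1 did share vehicle replicate 1 as lowest and D3T replicate 4 as highest. Over the 16 arrays, deviations from group means correlated at r = 0.84 between Aldh1a1 and Ptgr1 (Spearman's rho 0.86), at 0.73 between Akr1a1 and Ptgr1 (0.64) and at 0.55 between Aldh1a1 and Akr1a1 (0.57). These are descriptions over arrays that share normalization and background.

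Without the 2 rats furthest out in Aldh1a1, OLT replicate 2 and TBD replicate 1, the correlation of Aldh1a1 with Ptgr1 was 0.64 over 14 arrays, and that of Aldh1a1 with Akr1a1 was 0.33. Without OLT replicate 1 and TBD replicate 2, the correlation of Akr1a1 with Ptgr1 was 0.57. This kept TBD replicate 1, which deviated by -0.21 in Akr1a1 against 0.20 for TBD replicate 2. In Ptgr1 these deviations were -0.94 and 0.87, so the rat further out in both genes stayed in. With the array median taken out (a step chosen after seeing the data) the correlations over 16 arrays were 0.80 for Aldh1a1 with Ptgr1, 0.67 for Akr1a1 with Ptgr1 and 0.44 for Aldh1a1 with Akr1a1. Of 3103 other genes, 0.226% correlated with Aldh1a1 within groups at least as closely as Ptgr1 did, and 9.02% at least as closely as Akr1a1 did. With Akr1a1, 0.483% did so at least as closely as Ptgr1. Across all arrays without removal of the group means the correlation of Aldh1a1 with Ptgr1 was -0.08. The aflatoxin aldehyde reductase Akr7a3 was also lowest in OLT replicate 2 and TBD replicate 1 among the compound-treated rats, at 11.01 and 11.47.

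**Figure D4:**
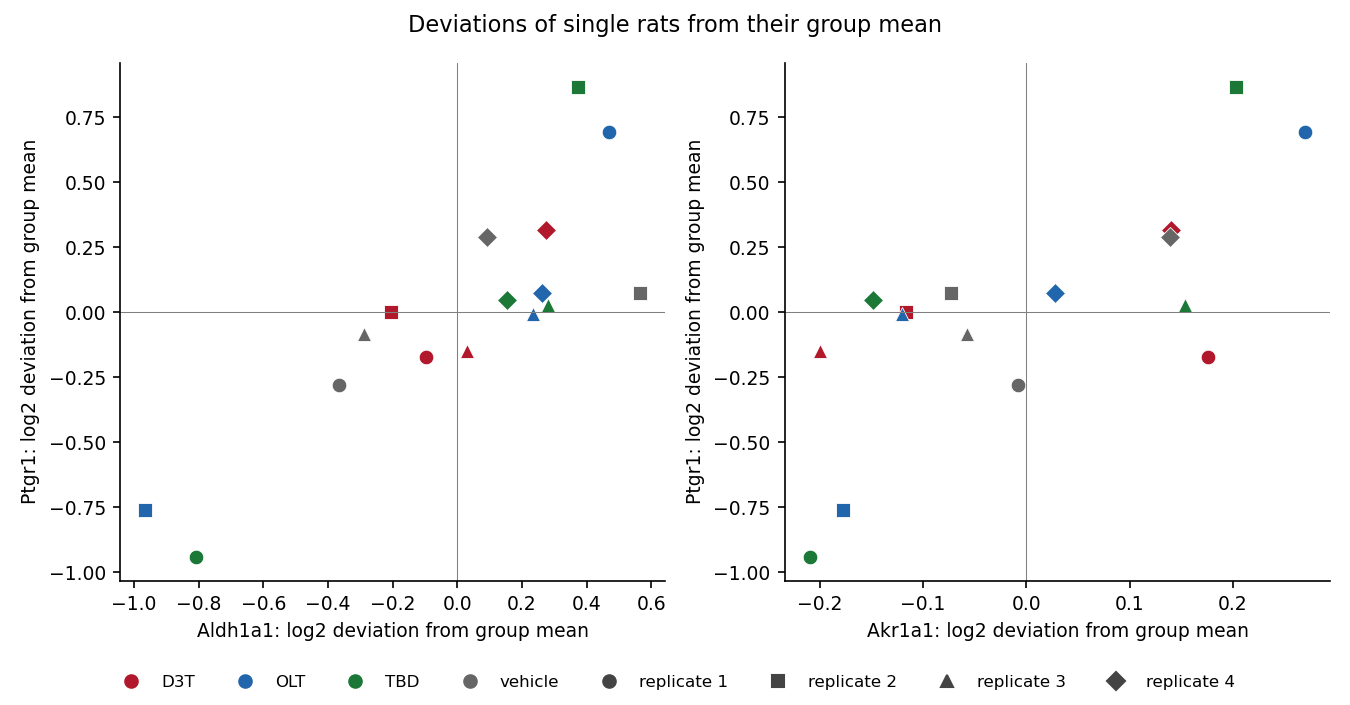
Deviation of each rat's log2 value from its group mean for Ptgr1 against Aldh1a1 on the left and against Akr1a1 on the right, coloured by group and with 1 symbol per replicate number. OLT replicate 2 and TBD replicate 1 lie low for both genes in each panel, and the correlations are 0.84 and 0.73 over 16 arrays.

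For each gene the 3 other genes with the highest correlation of log2 values over the 16 arrays were listed, out of 3104 genes with a tested probe set. These correlations include the differences between groups. Aldh1a1 was closest to microsomal epoxide hydrolase Ephx1 (r = 0.93), ribosomal protein gene Rpl35 (0.92) and Akr7a3 (0.91), and within groups these correlations were 0.70, 0.80 and 0.83. Akr1a1 was closest to the microsomal glutathione transferase Mgst2 (0.93), Ptov1 (0.91) and the peroxisomal thiolase Acaa1b (0.90). Ptgr1 was closest to the class I alcohol dehydrogenase Adh1c (0.94, and 0.87 within groups), the steroid dehydrogenase Hsd17b2 (0.86, and 0.58 within groups) and Mtarc2 (0.81).

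Adh1c had its group means in the same order as Ptgr1, and Hsd17b2 was likewise lowest with TBD. All genes listed here were picked by correlations that include the group differences. Likeness in their group differences is thus in part set by that choice and is no separate support. Adh1c differed by 0.32 with D3T, -0.45 with OLT and -0.84 with TBD, of which the last passed (adjusted p = 0.0447, limma), and Hsd17b2 by -0.31, -0.76 and -2.07, of which the last passed (adjusted p = 0.000746). Aldh3a2, by its probe set M73714_at, was closest to Serinc5 (0.83), the carnitine palmitoyltransferase Cpt1a (0.80) and Vmp1 (0.80). Within groups these correlations were lower, at 0.47, 0.44 and 0.53. Cpt1a, the entry enzyme of mitochondrial fatty acid oxidation, fell by 1.16 with TBD on the log2 scale (adjusted p = 0.00789), against differences of -0.44 with D3T and -0.66 with OLT that did not pass. Aldh2 was closest to the glutaminase Gls2 (0.82), the acyl-CoA dehydrogenase Acads (0.80) and Ddrgk1 (0.78). Cbr1 was closest to Ache (0.92), Csn3 (0.91) and Mal (0.91), of which Csn3 read 3.45 to 3.79 on all arrays and itself correlated with the array medians within groups at 0.96.

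Other genes that handle aldehydes and carbonyls were taken from lists of ALDH, AKR, carbonyl reductase, alkenal reductase and alcohol dehydrogenase genes and of other aldehyde-handling enzymes. Of 54 such genes beside the members, 22 were on the array and 19 were tested. With D3T 3 rose and 1 fell, with OLT 1 rose and 1 fell, and with TBD 4 rose and 2 fell. Among all 3104 tested genes, 4.61% rose and 13.1% fell with D3T, 2.61% and 8.92% with OLT, and 2.8% and 10.0% with TBD. The median log2 difference of the 19 genes was 0.02 with D3T, -0.11 with OLT and -0.14 with TBD, against 0.03, -0.03 and -0.02 over all tested genes. The balance of calls depended on scaling: the share of higher calls over all probe sets was 33.5%, 30.0% and 27.3% with D3T, OLT and TBD as deposited, 52.9%, 46.5% and 44.9% after quantile normalization, and 43.8%, 41.8% and 33.6% after centring.

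Of 4 other ALDH genes tested, Aldh1l1, the folate enzyme formyltetrahydrofolate dehydrogenase, rose with 2 compounds. It read 10.58, 10.45, 10.21 and 10.58 in D3T livers, 9.56, 9.89, 10.42 and 10.21 in TBD livers, and 8.59, 9.15, 8.64 and 9.15 in vehicle livers. The rise was 2.98-fold with D3T (adjusted p = 0.001, limma) and 2.2-fold with TBD (adjusted p = 0.0115), and both groups lay wholly above vehicle. Such a separation was seen at 9.07% of tested probe sets with D3T and 3.98% with TBD. With OLT the difference was 0.78 and did not pass (adjusted p = 0.0769).

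Of 7 other AKR genes tested, Akr7a3 and Akr1c14 changed with all 3 compounds and in opposite directions. Akr7a3 rose 27.3-fold with D3T, 13.3-fold with OLT and 11.9-fold with TBD. Akr1c14, a hydroxysteroid dehydrogenase, fell 1.82-fold with D3T (adjusted p = 0.00115), 1.48-fold with OLT (adjusted p = 0.0229) and 1.64-fold with TBD (adjusted p = 0.00561, limma). Short probes can bind close AKR1C paralogs, so this value may mix family members, and the Akr7a3 probe set likewise carries the suffix of probes shared between transcripts. Adh1c, described above, was the other gene that fell with TBD. Singled out after their values were seen, Akr7a2, an aldehyde reductase, rose by 0.63 with D3T (adjusted p = 0.0032) and by 0.47 with TBD (adjusted p = 0.0227), and Hsd11b1, a carbonyl reductase and glucocorticoid activating enzyme, rose by 0.41 with TBD (adjusted p = 0.0483).

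**Figure D5:**
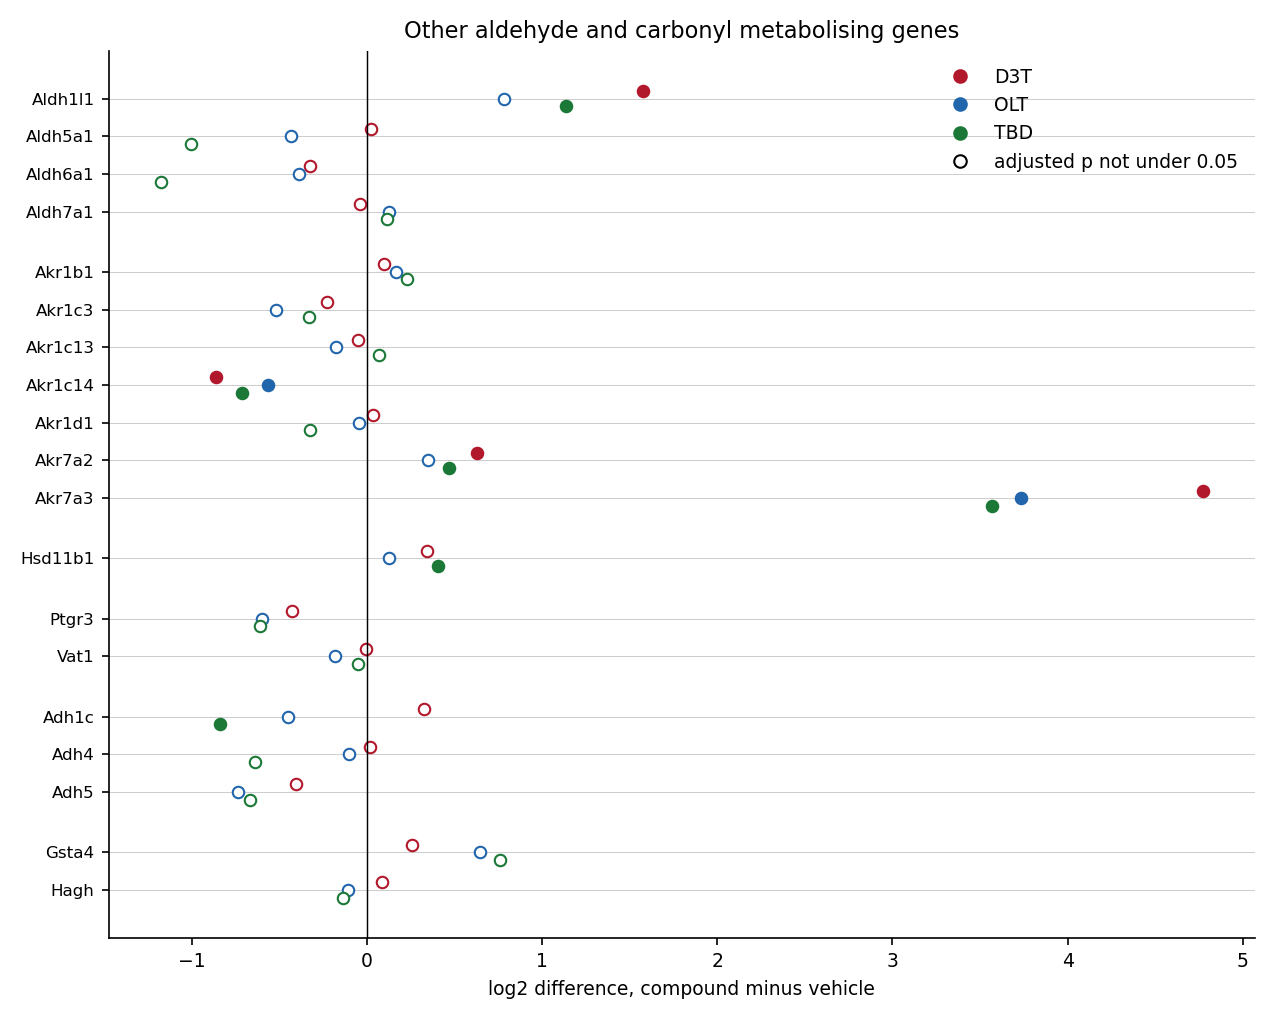
Log2 differences of D3T, OLT and TBD minus vehicle for 19 other aldehyde and carbonyl metabolising genes, 1 probe set per gene and ordered by family, with filled points where the adjusted p is under 0.05. Akr7a3 stands at 4.77, 3.73 and 3.57, Aldh1l1 rises with D3T and TBD, and Akr1c14 lies below 0 with filled points for all 3 compounds.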

How the data were processed

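Liver RNA of 16 rats was measured on 1-colour Affymetrix-type arrays with biotin label, 1 array per rat. The authors deposited 1 table of log2 values of 8740 probe sets. Per the submitters' processing notes these are GCRMA values, with the tool's version not given in the sources used here. This method corrects background by probe sequence and compresses dim values, so folds of dim probe sets are uncertain. Array number, not read depth, limits precision. Gene symbols came from the platform annotation: 7006 probe sets had 1 symbol, 308 several and 1426 none, and 6985 were matched by Entrez ID to a reference table of assembly GRCr8.

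A model of the 4 group means was fitted in R 4.3.3 with limma 3.58.1 to the 16 arrays (12 residual and 2.41 prior degrees of freedom), with 6 two-sided comparisons adjusted by Benjamini-Hochberg over 5323 probe sets. P-values measure the spread between rats. A gene in the wider lists is represented by its brightest tested probe set. The rule for named genes was: all members, up to 3 called list genes of largest change per compound, and 3 genes most like each member. The members and lists were chosen with earlier results of these data known. Fits were tested on simulated data. Alternatives were a stricter filter or none, the compared arrays alone, a replicate block, an intensity trend with robust prior, quantile normalization, centring, a floor, array weights, averaged probe sets, a stricter threshold, and leaving out arrays. Scan dates were not used here, so batches could not be examined. Figures were drawn with matplotlib 3.10.9.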

Additional observations from a re-analysis of the deposited data

Results flagged for a closer look

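Values of 9 probe sets in 4 groups of 4 rats were examined for a single rat far from the other 3, and chance alone flags about 1 in 20 such groups. Of 36 groups, 2 held such a value. Aldh1a1 read 10.63 in OLT replicate 2, while the other OLT livers read 11.83 to 12.07. Without that rat the OLT difference from vehicle was 2.03. Aldh2 read 10.91 in TBD replicate 1, while the other TBD livers read 11.12 to 11.15. Both rats also held the lowest Ptgr1 and Akr1a1 values of their groups.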

How the results depend on the processing

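Calls against vehicle were stable for Aldh1a1 with all 3 compounds, Akr1a1 with D3T and Ptgr1 with TBD under all alternatives run. Aldh3a2 with TBD was lost only when a gene's probe sets were averaged, including any that failed the filter. Over the 8 results called, 87 values under other settings stayed called and 9 did not, and with 1 array left out 123 stayed called and 5 did not, all of them Akr1a1 with OLT. The number of members called with OLT, 2 as reported, was 1 with an intensity trend and robust prior, 1 with the 8 arrays compared alone, 1 with the replicate block, 1 at an adjusted p under 0.01, 5 with array weights and 1 to 3 with 1 array left out. For D3T against OLT it was 2 with array weights, against 0. For D3T against TBD, 1 as reported, it was 0 with the 8 arrays alone, 0 after centring, 2 with array weights and 1 to 2 with 1 array left out. The cause was not tested.

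Differences that changed sign were all uncalled. Without OLT replicate 1 and TBD replicate 4, these were Aldh1a1 for D3T against OLT (0.15), Aldh2 with TBD (-0.011), rc_AA996484_g_at of Aldh3a2 with OLT (-0.020), Akr1a1 for TBD against OLT (0.071), and D89070cds_s_at of Cbr1 with OLT (-0.015) and TBD (-0.0019). After centring, they were Aldh2 with D3T (-0.00073) and for D3T against TBD (-0.014), M73714_at of Aldh3a2 for D3T against OLT (-0.075), and Cbr1 for D3T against TBD (-0.057, D89069_f_at) and TBD against OLT (-0.0028, D89070cds_s_at). After quantile normalization, they were Aldh2 with TBD (-0.0011) and D89069_f_at for D3T against TBD (-0.039). With array weights, they were rc_AA996484_g_at with OLT (-0.34), Akr1a1 for TBD against OLT (0.051) and D89069_f_at for D3T against TBD (-0.017). With probe sets averaged, they were Aldh3a2 with D3T (0.11) and Cbr1 for D3T against TBD (-0.074).

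With 1 array left out, Aldh1a1 ran from -0.33 to 0.15 for D3T against OLT, from -0.14 to 0.25 for D3T against TBD and from -0.45 to 0.14 for TBD against OLT. Aldh2 ran from -0.048 to 0.058 with TBD and from -0.0031 to 0.12 for D3T against TBD. Aldh3a2 ran from -0.0088 to 0.023 for D3T against OLT (M73714_at) and from -0.020 to 0.49 with OLT (rc_AA996484_g_at). Akr1a1 ran from -0.14 to 0.021 for TBD against OLT. D89069_f_at of Cbr1 ran from -0.12 to 0.016 for D3T against OLT, from -0.059 to 0.038 for D3T against TBD and from -0.13 to 0.0093 for TBD against OLT. D89070cds_s_at ran from -0.015 to 0.18 with OLT, from -0.0019 to 0.19 with TBD and from -0.10 to 0.13 for TBD against OLT.

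Samples of the same replicate number did not deviate together: the correlations of their deviations ran from -0.52 to 0.32. With the replicate number as a block, the Akr1a1 call with OLT was lost (adjusted p = 0.0659, limma), and no other member call against vehicle changed. Probe sets near background, such as those of Cbr1, limit what can be seen of small changes.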
